A study of Mus musculus with 34 samples.

Results

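The genes described here make cholesterol or control and move it. The list holds 28 genes: 8 enzymes of the early pathway from acetyl-CoA to squalene, 10 enzymes of the late pathway from squalene to cholesterol, 7 genes of the SREBP control system and 3 genes of sterol transport. They were taken by symbol. In RNA, 27 of the 28 had a row among the 17515 of the table, and all 27 were among the 13534 transcripts tested. In chromatin, a member was followed through peaks annotated to it within 1000 bp of a transcription start site. That gave 23 KDM5A peaks at 23 members, 5 KDM5C peaks at 4 members and 21 H3K4me3 peaks at 21 members. Hmgcs1, which encodes HMG-CoA synthase, has no value here in any assay. The row of Mvd is a noncoding RefSeq transcript of that gene.

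Cells sense cholesterol in the membrane of the endoplasmic reticulum. When sterol is low, Scap carries the precursors made from Srebf1 and Srebf2 to the Golgi, where the proteases encoded by Mbtps1 and Mbtps2 release the active transcription factors, which turn on nearly every enzyme of the pathway. When sterol is high, the proteins of Insig1 and Insig2 hold Scap back, and Insig1 is itself a target of SREBP. In fat cells, Srebf1 is known above all for its link to fatty acid synthesis, and Srebf2 for its link to cholesterol synthesis.

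The study used 3T3-L1 cells, a mouse preadipocyte line that turns into adipocytes when confluent cultures are given dexamethasone, insulin, 3-isobutyl-1-methylxanthine and serum. RNA and H3K4me3, a histone mark of active promoters, were measured in cells transduced with lentiviral shKDM5A/B/C (shKdm5ABC) and in control cells transduced with lentiviral shLuc, at day 0, 4 hours and day 2 of differentiation, with 2 libraries a group. Both groups were therefore exposed to virus and polybrene 4 days before induction, and no RNA library comes from cells without virus. KDM5A, a demethylase of histone H3 lysine 4, was mapped at the same 3 times and its relative KDM5C at day 2, with 2 libraries a time, and the labels state no transduction for those cells. The sample titles number the 2 libraries of a group as experiments 1 and 2 and do not say whether these were independent cultures, so each p measures the spread between these samples only.

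The knockdown targets were lower in shKdm5ABC cells at every time. Kdm5c was at 0.380 to 0.397 of the shLuc level, Kdm5a at 0.507 to 0.581 and Kdm5b at 0.602 to 0.639, each with an adjusted p of 0.0216 or less (limma). The 6 preadipocyte markers summed to 1571 to 3381 tags per kb in day 2 libraries, against 7983 to 9222 tags per kb in day 0 libraries. The 6 adipocyte markers summed to 11250 to 30500 tags per kb in day 2 libraries and to 853 to 2832 tags per kb in day 0 libraries. Of the 5 macrophage markers, Ptprc, Adgre1 and Itgam lay below -3.0 on the log2 scale in every library and were not tested, Csf1r lay between -0.27 and 1.53, and Cd68 between 4.07 and 5.93.

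All RNA values below are deposited levels on a log2 scale, in normalized tags per kb, so levels of different genes can be set side by side. A difference is called when limma's Benjamini-Hochberg adjusted p over all tested transcripts is under 0.05, and SE stands for the standard error that limma gives to it. In bulk RNA, fewer cells of a type and less RNA per cell cannot be told apart. Averaged over the 12 libraries, the members ranged from Npc2 at 11.83, above 99.2% of tested transcripts, to Idi1 at 4.35, above 22.4%. The other members lay between 5.98 (Tm7sf2) and 9.20 (Msmo1). The map of all 27 members by library shows their levels against day 0.

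**Figure D1:**
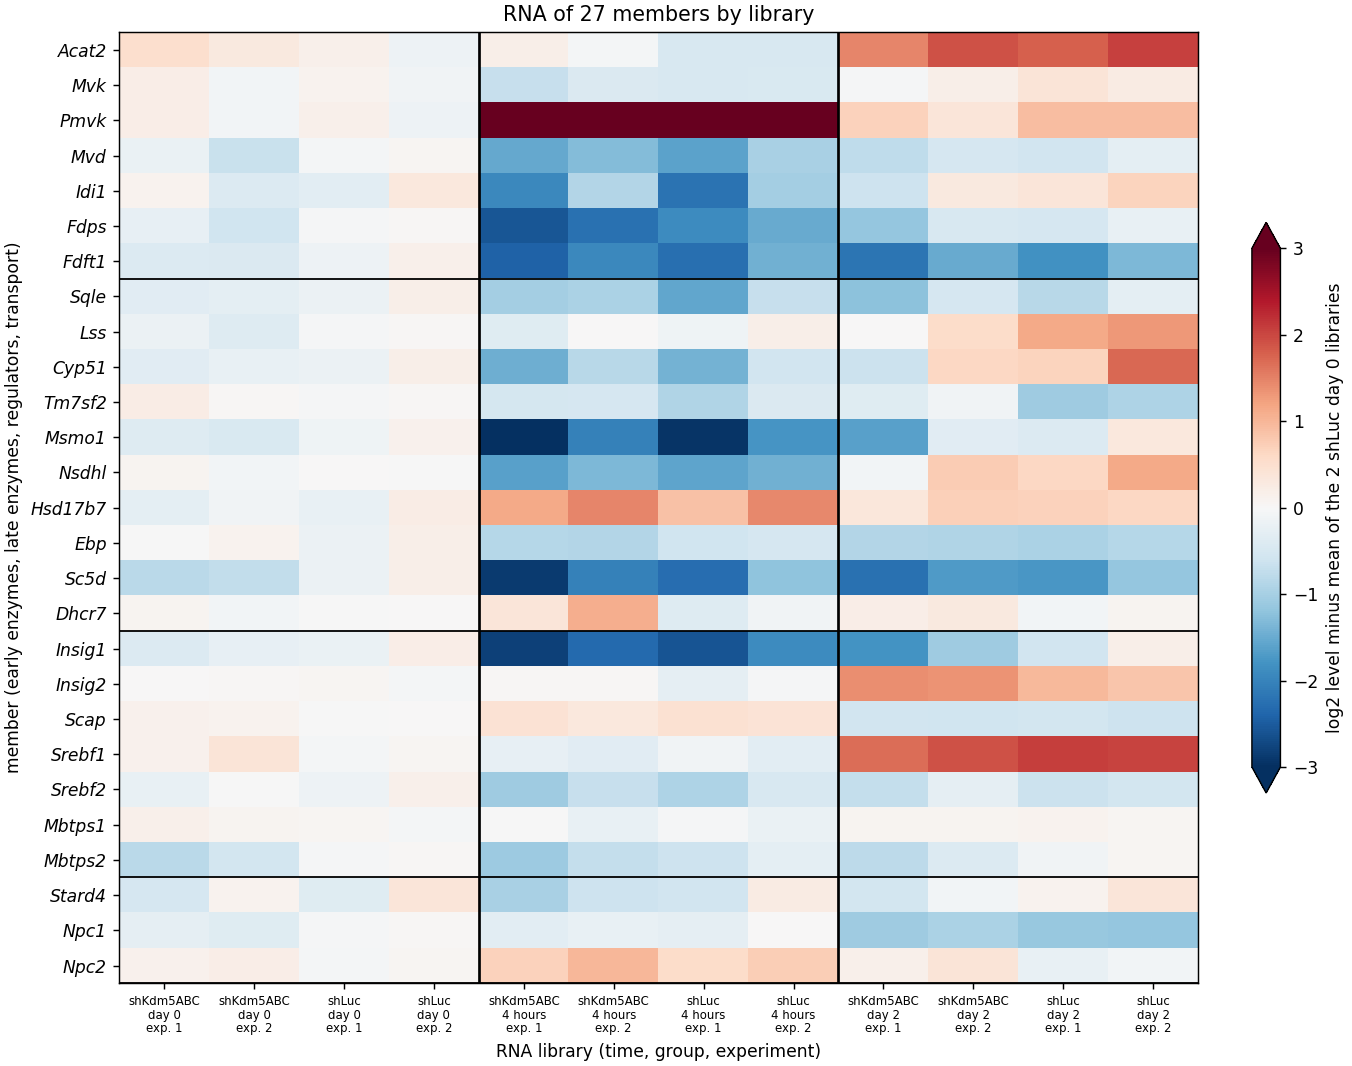
RNA level of 27 members (rows, grouped as early enzymes, late enzymes, regulators and transport genes) in 12 libraries (columns, ordered by time, group and experiment), as log2 level minus the mean of the 2 shLuc day 0 libraries, with colours capped at 3 in either direction. Most enzymes are blue in all 4 libraries of 4 hours, while Pmvk, at 11.26 to 12.11 log2 tags per kb there, is deep red.

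At 4 hours after induction, most of the pathway was lower in shLuc cells than at day 0. Of the 27 members 14 fell and 4 rose. Over all tested transcripts 42.3% were called in that comparison, with 21.6% lower and 20.7% higher. The median difference was -0.47 over the members, -0.99 over the 17 enzymes and -0.02 over all tested transcripts. Insig1 and the enzymes Msmo1, Fdft1 and Sc5d fell the most.

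Insig1 was at 6.23 and 6.92 in shLuc cells at 4 hours, against 8.61 and 9.02 at day 0. Its difference of -2.24 (SE 0.33, adjusted p 4.56e-04) left 0.211 of the day 0 level. Msmo1, which removes methyl groups from sterols, was at 7.32 and 8.47 at 4 hours, against 10.12 and 10.39 at day 0, a difference of -2.36 (SE 0.48). For both genes the 4 hour libraries lay below the day 0 libraries with no overlap.

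Among the early enzymes, 6 of 7 fell. Fdft1, which joins 2 farnesyl units into squalene, was at 5.58 and 6.39 at 4 hours, against 7.69 and 7.97 at day 0, and fell by 1.85 on the log2 scale (SE 0.31). Fdps, which makes farnesyl diphosphate, was at 6.25 and 6.61 at 4 hours, against 8.08 and 8.16 at day 0, and fell by 1.70 (SE 0.24). Idi1, the isopentenyl diphosphate isomerase, was at 2.60 and 3.81 at 4 hours, against 4.51 and 5.13 at day 0, and fell by 1.62 (SE 0.49). In all 3 genes experiment 1 was the lower library at 4 hours. Mvd, Acat2 and Mvk fell by 1.28, 0.47 and 0.46. They encode the mevalonate diphosphate decarboxylase, the thiolase of the first step and the mevalonate kinase.

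Pmvk, which encodes the phosphomevalonate kinase, moved the other way from every other early enzyme. It was at 11.26 and 11.72 in shLuc cells at 4 hours, against 7.12 and 6.82 at day 0, a rise of 4.52 (SE 0.20, adjusted p 4.35e-07), or 22.9-fold. In shKdm5ABC cells it was at 11.74 and 12.11 at 4 hours, against 7.17 and 6.89 at day 0, a rise of 4.89 (SE 0.20). At day 2 it was at 7.67 and 7.34 in shKdm5ABC cells and 7.90 and 7.89 in shLuc cells. The 4 libraries of 4 hours stood far above the other 8, and at 4 hours Pmvk was higher than every other member except Npc2.

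Of the 10 late enzymes, 6 fell at 4 hours in shLuc cells, 1 rose and 3 were not past the threshold. Besides Msmo1, these were Sc5d (-1.75, SE 0.38), Nsdhl (-1.51, SE 0.25), Sqle (-1.12, SE 0.31), Tm7sf2 (-0.66, SE 0.18) and Ebp (-0.55, SE 0.14). Sc5d is a sterol desaturase, Nsdhl a sterol dehydrogenase, Tm7sf2 a sterol reductase and Ebp a sterol isomerase. Sqle, the squalene epoxidase and a slow step of the pathway, was at 7.65 and 8.52 at 4 hours, against 9.03 and 9.38 at day 0. Hsd17b7, a ketosteroid reductase, was the late enzyme that rose, to 8.37 and 8.95 at 4 hours, against 7.28 and 7.73 at day 0 (1.15, SE 0.22). Lss, which closes the rings to lanosterol, had a difference of 0.02 (SE 0.19), Dhcr7, which takes the last reducing step, of -0.26 (SE 0.21) and Cyp51, the lanosterol demethylase, of -0.99 (SE 0.45, adjusted p 0.103). With the experiment number as a block in the limma fit, Cyp51 was called lower (SE 0.22, adjusted p 0.0030), where 7915 of 13534 transcripts were called.

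Of the control genes, Srebf2 fell with the enzymes while Scap rose. Srebf2 was at 8.09 and 8.54 at 4 hours, against 8.86 and 9.17 at day 0 (-0.70, SE 0.21, adjusted p 0.0202). Scap was at 8.96 and 8.92 at 4 hours, against 8.50 and 8.51 at day 0 (0.44, SE 0.10, adjusted p 0.00476). Srebf1 was at 6.76 and 6.54 at 4 hours and 6.80 and 6.92 at day 0, a difference of -0.21 (SE 0.14) that was not past the threshold. Insig2, Mbtps1 and Mbtps2 had differences of -0.46 to -0.12 and were not past it either. With the experiment as a block limma called Mbtps2 lower (-0.46, SE 0.10, adjusted p 0.00302), where 7915 of 13534 transcripts were called. Among the transport genes Npc2, which binds cholesterol in lysosomes, rose by 0.64 (SE 0.15), and its partner Npc1 and the carrier Stard4 differed by -0.12 and -0.16 with no call. Npc1, Tm7sf2, Lss, Fdft1, Srebf1 and Mbtps2 overlap another gene with an RNA row. Overlap was taken over whole gene spans, and whether exons are shared was not checked. The labels do not say whether the reads keep their strand, so reads from sequence that such a pair shares cannot be told apart. At 4 hours Vps51, which overlaps Tm7sf2, fell by 0.98 (SE 0.19). Ctsb, which overlaps Fdft1, was at 10.98 and 11.13 in shLuc cells at 4 hours, against 10.94 and 11.10 at day 0.

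In shKdm5ABC cells 12 members fell and 5 rose between day 0 and 4 hours, where 46.1% of all tested transcripts were called, 23.7% lower and 22.4% higher. The median difference was -0.62 over the members and -0.02 over all tested transcripts. Insig1 was at 6.01 and 6.47 at 4 hours, against 8.40 and 8.56 at day 0 (-2.24, SE 0.33). Msmo1 (-2.09), Fdps (-1.99), Fdft1 (-1.76), Sc5d (-1.68), Nsdhl (-1.49), Mvd (-0.98), Ebp (-0.91), Srebf2 (-0.76), Tm7sf2 (-0.63), Mvk (-0.62) and Srebf1 (-0.56) were the other members that fell. Besides Pmvk, Hsd17b7 (1.5), Dhcr7 (0.73), Npc2 (0.68) and Scap (0.26) rose. Idi1 (-1.25, SE 0.49) and Sqle (-0.67, SE 0.31) were not past the threshold, with adjusted p values of 0.0575 and 0.0982. With the experiment as a block limma called both lower, with adjusted p values of 0.00918 and 0.00753, where 8255 of 13534 transcripts were called. Cyp51 (-0.87, SE 0.22), Stard4 (-0.60, SE 0.13) and Mbtps1 (-0.24, SE 0.07) were also called lower with it. The difference between the groups in the change to 4 hours was itself tested, and limma called 0 of 27 members and 0.00% of all transcripts. At an unadjusted p under 0.05 it gave 1 of 27 members and 3.70% of all transcripts. That member was Dhcr7, with a difference in change of 0.99 (SE 0.29). The difference in change was 0.01 for Insig1, -0.35 for Srebf1, -0.06 for Srebf2, -0.18 for Scap, 0.45 for Sqle and 0.37 for Idi1.

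**Figure D2:**
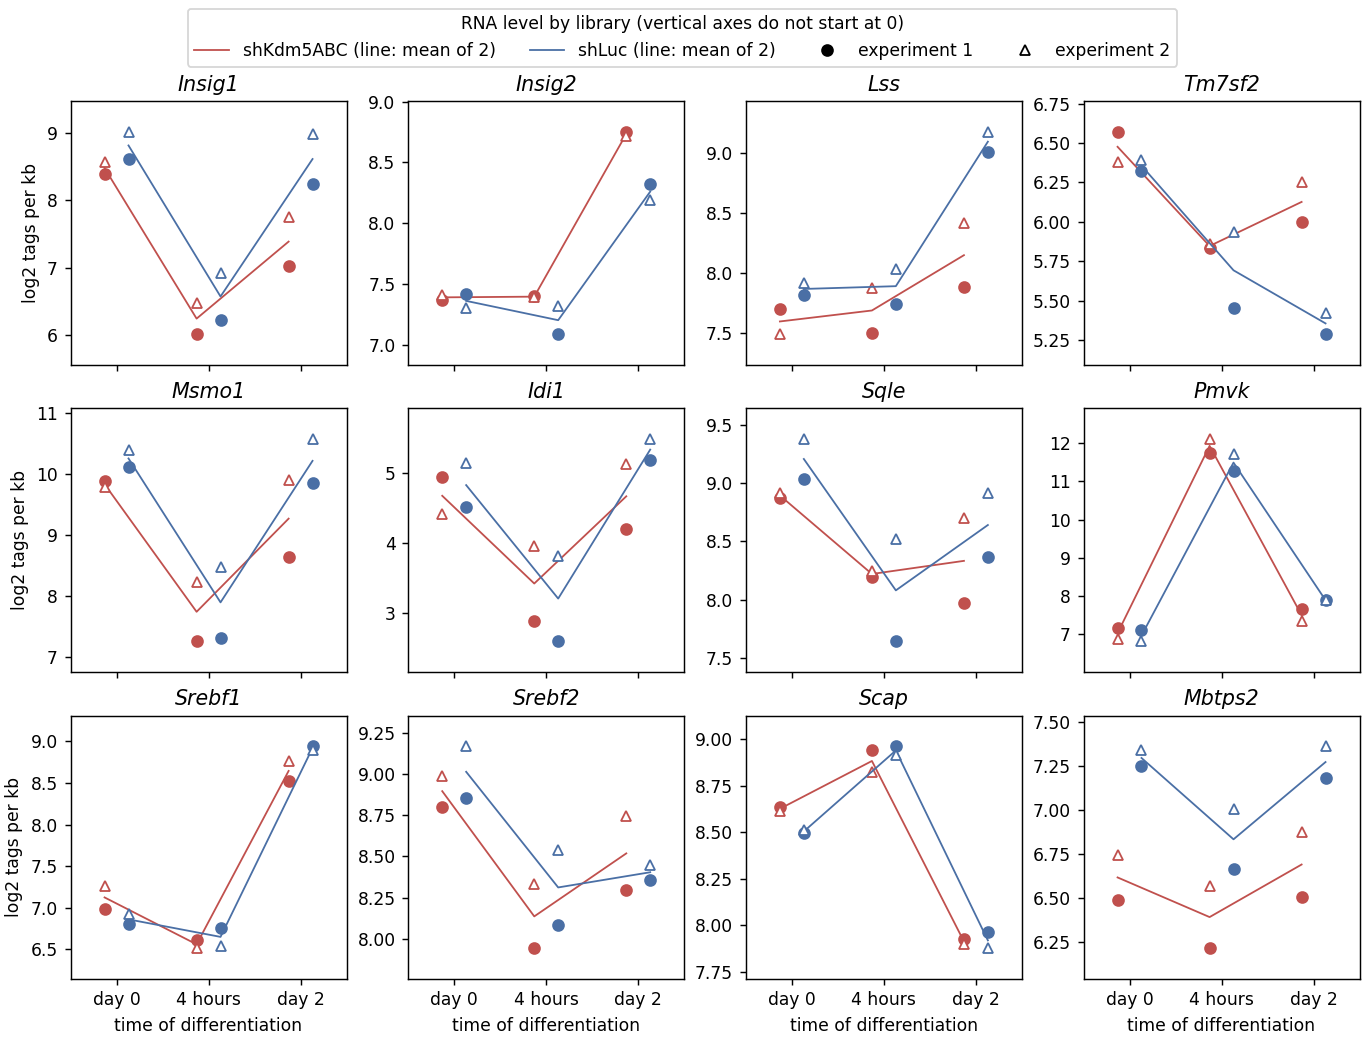
Level of 12 members in every RNA library, as log2 tags per kb (vertical axes do not start at 0), at day 0, 4 hours and day 2, with shKdm5ABC in red, shLuc in blue, filled circles for experiment 1, open triangles for experiment 2 and lines through the mean of 2 libraries. Insig1, Msmo1, Idi1 and Sqle dip at 4 hours, Pmvk peaks there, and Insig1 and Lss lie lower in shKdm5ABC than in shLuc cells at day 2.

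At day 2 against day 0 in shLuc cells, 8 of 27 members were higher and 7 lower, where 55.0% of all tested transcripts were called, 27.1% higher and 27.8% lower. The medians were -0.02 over the members and -0.01 over all tested transcripts, so the members' counts and median lay near those of all transcripts. Srebf1 rose the most, and Fdft1 fell the most.

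Srebf1 was at 8.94 and 8.90 in shLuc cells at day 2, against 6.80 and 6.92 at day 0, a rise of 2.06 (SE 0.14, adjusted p 1.93e-06) or 4.17-fold. Srebf2 was at 8.36 and 8.45 at day 2, against 8.86 and 9.17 at day 0, and fell by 0.61 (SE 0.21, adjusted p 0.0288). The 2 SREBP genes thus stood in the opposite order at day 2, with Srebf1 above Srebf2 in both shLuc libraries, and Srebf2 above Srebf1 in both at day 0. Scap fell by 0.59 (SE 0.10), to 7.96 and 7.88 at day 2, against 8.50 and 8.51 at day 0. Insig2 rose by 0.90 (SE 0.11), while Insig1, at 8.24 and 8.99 at day 2 and 8.61 and 9.02 at day 0, had a difference of -0.20 (SE 0.33) with no call.

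Among the enzymes, Acat2 was at 10.05 and 10.32 at day 2, against 8.41 and 8.11 at day 0 (1.92, SE 0.17). Lss (1.23, SE 0.19), Cyp51 (1.19, SE 0.45), Pmvk (0.92, SE 0.20), Nsdhl (0.88, SE 0.25) and Hsd17b7 (0.66, SE 0.22) also rose. The rise of Cyp51 had an adjusted p of 0.0458. Fdft1 (-1.58, SE 0.31), Sc5d (-1.45, SE 0.38), Tm7sf2 (-1.0, SE 0.18) and Ebp (-0.91, SE 0.14) fell, as did Npc1 (-1.14, SE 0.12). Fdft1 was at 6.02 and 6.48 at day 2, against 7.69 and 7.97 at day 0, and Ctsb, which overlaps it, fell by 1.54. Over the same interval 4930483K19Rik, which overlaps Lss, rose by 0.93, and Rmc1 and Rai1, which overlap Npc1 and Srebf1, rose by 0.86 and 0.54. Idi1, Msmo1 and Sqle were not past the threshold, with differences of 0.51, -0.04 and -0.56. With the experiment as a block limma called Sqle lower (SE 0.18, adjusted p 0.0163), where 9034 of 13534 transcripts were called.

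Between 4 hours and day 2, 12 members rose and 4 fell in shLuc cells, where 46.4% of all tested transcripts were called, 22.9% higher and 23.5% lower. This comparison shares its libraries with the 2 above. Acat2 (2.40, SE 0.17), Nsdhl (2.39, SE 0.25), Msmo1 (2.32, SE 0.48), Srebf1 (2.27, SE 0.14), Cyp51 (2.18, SE 0.45), Idi1 (2.12, SE 0.49) and Insig1 (2.04, SE 0.33) rose the most. Fdps (1.33), Lss (1.2), Insig2 (1.06), Mvd (0.85) and Mvk (0.78) rose less. Pmvk (-3.59), Scap (-1.02), Npc1 (-1.02) and Npc2 (-0.80) fell. Fdft1 and Sc5d, which were lower at both later times than at day 0, differed by 0.27 (SE 0.31) and 0.30 (SE 0.38) between these 2 times, with no call, and Srebf2 and Sqle by 0.09 (SE 0.21) and 0.56 (SE 0.31). With the experiment as a block Sqle (0.56, SE 0.18), Mbtps2 (0.44, SE 0.10), Stard4 (0.40, SE 0.13) and Mbtps1 (0.21, SE 0.07) were called higher. Hsd17b7 (-0.49, SE 0.13) and Ebp (-0.36, SE 0.11) were called lower, where 8212 of 13534 transcripts were called.

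In shKdm5ABC cells 5 members rose and 6 fell between day 0 and day 2, where 45.2% of all tested transcripts were called, 22.0% higher and 23.1% lower. Without shKdm5ABC day 0 replicate 1 the count was 7 rather than 11. Srebf1 was at 8.53 and 8.76 at day 2, against 6.99 and 7.26 at day 0 (1.52, SE 0.14). Insig2, Acat2, Hsd17b7 and Lss rose by 1.34, 1.29, 0.73 and 0.55. Fdft1 (-1.42), Sc5d (-1.20), Insig1 (-1.09), Ebp (-0.94), Scap (-0.71) and Npc1 (-0.71) fell. Insig1 was at 7.03 and 7.75 in shKdm5ABC cells at day 2, against 8.40 and 8.56 at day 0. Srebf2 (-0.38), Sqle (-0.56) and Idi1 (-0.01) were not past the threshold. With the experiment as a block limma called Srebf2 (SE 0.10, adjusted p 0.00612) and Sqle (SE 0.18, adjusted p 0.0197) lower. Pmvk (0.47, SE 0.18, adjusted p 0.0459) was called higher with it, where 8088 of 13534 transcripts were called. Whether the change from day 0 to day 2 differed between the groups was tested as well, and limma called 0 of 27 members, with 0.310% of all transcripts called. At an unadjusted p under 0.05 there were 6 of 27 members and 11.9% of all transcripts. With the experiment as a block 1 member was called, Insig1, where 7.67% of all transcripts were, with a difference in change of -0.89 (SE 0.19, adjusted p 0.0199). Without the block its adjusted p was 0.501. The difference in change was -0.54 for Srebf1, 0.23 for Srebf2, -0.13 for Scap, 0.01 for Sqle and -0.51 for Idi1.

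At day 0 limma called 0 of 27 members in shKdm5ABC against shLuc cells, where 1.51% of all transcripts were called, 0.606% higher and 0.901% lower. The median difference was -0.15 over the members and 0.01 over all tested transcripts, and 3 members, against 12.7% of all transcripts, had an unadjusted p under 0.05. With the experiment as a block 2 members were lower, Mbtps2 (-0.68, SE 0.10, adjusted p 0.00305) and Sc5d (-0.77, SE 0.20, adjusted p 0.0361), where 9.44% of all transcripts were called, 593 higher and 684 lower. Insig1 was at 8.40 and 8.56 in shKdm5ABC cells and 8.61 and 9.02 in shLuc cells at day 0. Differences at day 0 were -0.34 for Insig1, 0.26 for Srebf1, -0.12 for Srebf2, 0.12 for Scap, -0.31 for Sqle and -0.15 for Idi1. The 5 macrophage markers summed to 56.7 to 64.2 tags per kb in shKdm5ABC cells at day 0, against 20.7 to 23.6 in shLuc cells. Most of that sum was Cd68 alone, at 5.93 and 5.76 on the log2 scale in shKdm5ABC cells, against 4.45 and 4.25 in shLuc cells. Limma called Cd68 higher by 1.5 (SE 0.24, adjusted p 0.0144). The adipocyte markers summed to 1213 to 2832 tags per kb in shKdm5ABC cells at day 0, against 853 to 1238 in shLuc cells. The 2832 came from experiment 2. There Fabp4, Adipoq, Plin1 and Cidec were at 10.90, 5.80, 4.73 and 6.98, against 9.60, 3.05, 2.18 and 3.68 in experiment 1 of shKdm5ABC. Limma called 1 of the 6 adipocyte markers higher at day 0, where 0.606% of all transcripts were. All 6 had a fitted difference above 0, with a median of 1.15. Cebpa was at 6.55 and 7.17 in shKdm5ABC cells, against 5.63 and 5.91 in shLuc cells. The part of either marker list in the member values was not tested.

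At 4 hours limma again called 0 of 27 members, where 1.44% of all transcripts were called, 0.798% higher and 0.643% lower, and 6 members, against 13.4% of all transcripts, had an unadjusted p under 0.05. With the block 4 were called, where 9.68% of all transcripts were. Dhcr7 was higher by 0.98 (SE 0.17, adjusted p 0.00590), and Fdps (-0.71, SE 0.19), Stard4 (-0.64, SE 0.13) and Mbtps2 (-0.44, SE 0.10) were lower. Dhcr7 was at 7.74 and 8.47 in shKdm5ABC cells, against 6.98 and 7.26 in shLuc cells, with no overlap, and its adjusted p without the block was 0.0536. Without shKdm5ABC 4 hours replicate 1, 1 member was called without the block. The macrophage markers summed to 46.9 to 56.8 tags per kb in shKdm5ABC cells at 4 hours, against 18.7 to 26.9 in shLuc cells. Most of that sum was again Cd68 alone, which was higher by 1.28 (SE 0.24, adjusted p 0.0334). The adipocyte markers summed to 1583 to 2394 tags per kb in shKdm5ABC cells at 4 hours, against 1221 to 1256 in shLuc cells. Limma called 0 of these 6 markers at 4 hours, where 5 had a fitted difference above 0 and 1 below it. The part of either marker list in these values was not tested. Differences of Insig1, Srebf1, Srebf2, Scap, Sqle and Idi1 ran from -0.33 (Insig1) to 0.21 (Idi1).

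At day 2 limma called 4 of 27 members, 2 lower and 2 higher in shKdm5ABC than in shLuc cells. Over all transcripts 9.00% were called, 3.34% lower and 5.66% higher, and the medians were -0.27 over the members, -0.31 over the 17 enzymes and -0.003 over all tested transcripts. The lower members were Insig1 and Lss, the higher ones Insig2 and Tm7sf2.

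Insig1 was at 7.03 and 7.75 in shKdm5ABC cells at day 2, against 8.24 and 8.99 in shLuc cells, a difference of -1.23 (SE 0.33, adjusted p 0.0450) that left 0.427 of the shLuc level. Its relative Insig2 was at 8.75 and 8.72 in shKdm5ABC cells, against 8.33 and 8.19 in shLuc cells, a difference of 0.47 (SE 0.11, adjusted p 0.0322). The groups did not overlap in either gene, and the 2 INSIG genes moved in opposite directions.

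Lss was at 7.88 and 8.41 in shKdm5ABC cells at day 2, against 9.01 and 9.18 in shLuc cells (-0.94, SE 0.19, adjusted p 0.0179). The overlapping noncoding gene 4930483K19Rik fell with it, by 1.01 (SE 0.22, adjusted p 0.0213). Tm7sf2 was at 6.00 and 6.25 in shKdm5ABC cells, against 5.29 and 5.42 in shLuc cells (0.77, SE 0.18, adjusted p 0.0302). The groups were separate in both genes, and Vps51, which overlaps Tm7sf2, had a difference of -0.005. From day 0, Lss rose and Tm7sf2 fell in shLuc cells, so in both genes the shKdm5ABC libraries of day 2 lay closer to the day 0 level. In Insig1 and Insig2, the other called members, those libraries lay further from it. Means of shLuc day 0, shLuc day 2 and shKdm5ABC day 2 were 8.82, 8.61 and 7.39 for Insig1 and 7.36, 8.26 and 8.73 for Insig2.

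These 4 calls rested on most of the day 2 libraries. There was 1 call when replicate 1 of shLuc was left out, and there were 0 when replicate 2 of shLuc or replicate 1 of shKdm5ABC was left out. With only the compared groups in the fit limma called 0 members and 25 of all transcripts. With the experiment as a block 9 of 27 were called, 6 lower and 3 higher, where 28.1% of all transcripts were called, 1924 lower and 1885 higher. The block added Cyp51 (-1.21, SE 0.22), Msmo1 (-0.95, SE 0.27), Mbtps2 (-0.58, SE 0.10) and Stard4 (-0.55, SE 0.13) to the lower and Npc2 (0.43, SE 0.08) to the higher members. Cyp51 was at 8.05 and 9.32 in shKdm5ABC cells and 9.37 and 10.42 in shLuc cells, so that the group ranges nearly met. The adipocyte markers summed to 11250 to 21330 tags per kb in shKdm5ABC cells at day 2, against 24430 to 30500 in shLuc cells, and the preadipocyte markers to 2700 to 3381, against 1571 to 2481. Most of the adipocyte sum was Fabp4 alone, at 12.82 and 13.71 on the log2 scale in shKdm5ABC cells, against 14.17 and 14.34 in shLuc cells. Of the 6 adipocyte markers 5 had a fitted difference below 0 and 1, Adipoq, above it (0.145), with a median of -0.58. Limma called 0 of the 6 adipocyte and 1 of the 6 preadipocyte markers, and the part of either in the member values was not tested.

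Within each experiment, the enzymes leaned lower in shKdm5ABC cells at day 2. The difference was below 0 in both experiments for 13 of 17 enzymes and above 0 in both for 2, against 40.7% and 37.8% of all tested transcripts. The median over the enzymes was -0.39 in experiment 1 and -0.22 in experiment 2, and over all tested transcripts -0.01 and -0.003. All 7 early enzymes had a fitted difference below 0, from -0.67 (Idi1) to -0.20 (Mvd), and none was called. Idi1 was at 4.20 and 5.12 in shKdm5ABC cells and 5.17 and 5.48 in shLuc cells, and Sqle at 7.97 and 8.70 in shKdm5ABC cells and 8.36 and 8.92 in shLuc cells, with overlap in Sqle. Srebf1 (-0.28, SE 0.14), Srebf2 (0.11, SE 0.21) and Scap (-0.01, SE 0.10) had no call. At day 0 and 4 hours 9 and 7 of the 17 enzymes were lower in both experiments, against 35.1% and 34.1% of all tested transcripts. At these times 3 and 5 enzymes were higher in both, against 37.8% and 34.8% of all tested transcripts.

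Mbtps2, the site-2 protease gene, was lower in shKdm5ABC cells in both experiments at all 3 times. It was at 6.49 and 6.74 in shKdm5ABC cells, against 7.25 and 7.34 in shLuc cells, at day 0. At 4 hours it was at 6.22 and 6.57, against 6.66 and 7.0 in shLuc cells, and at day 2 at 6.51 and 6.88, against 7.18 and 7.36. The groups did not overlap at any time. The fitted differences of -0.68, -0.44 and -0.58 had adjusted p values of 0.134, 0.348 and 0.0844 without the block and of 0.00305, 0.0249 and 0.00269 with it. Yy2, which lies within Mbtps2, was lower by 0.85 at day 0 (SE 0.18, adjusted p 0.0498). At 4 hours Yy2 was at 4.92 and 4.73 in shKdm5ABC cells, against 5.23 and 4.95 in shLuc cells. At day 2 it was at 4.73 and 4.66, against 5.19 and 5.16.

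**Figure D3:**
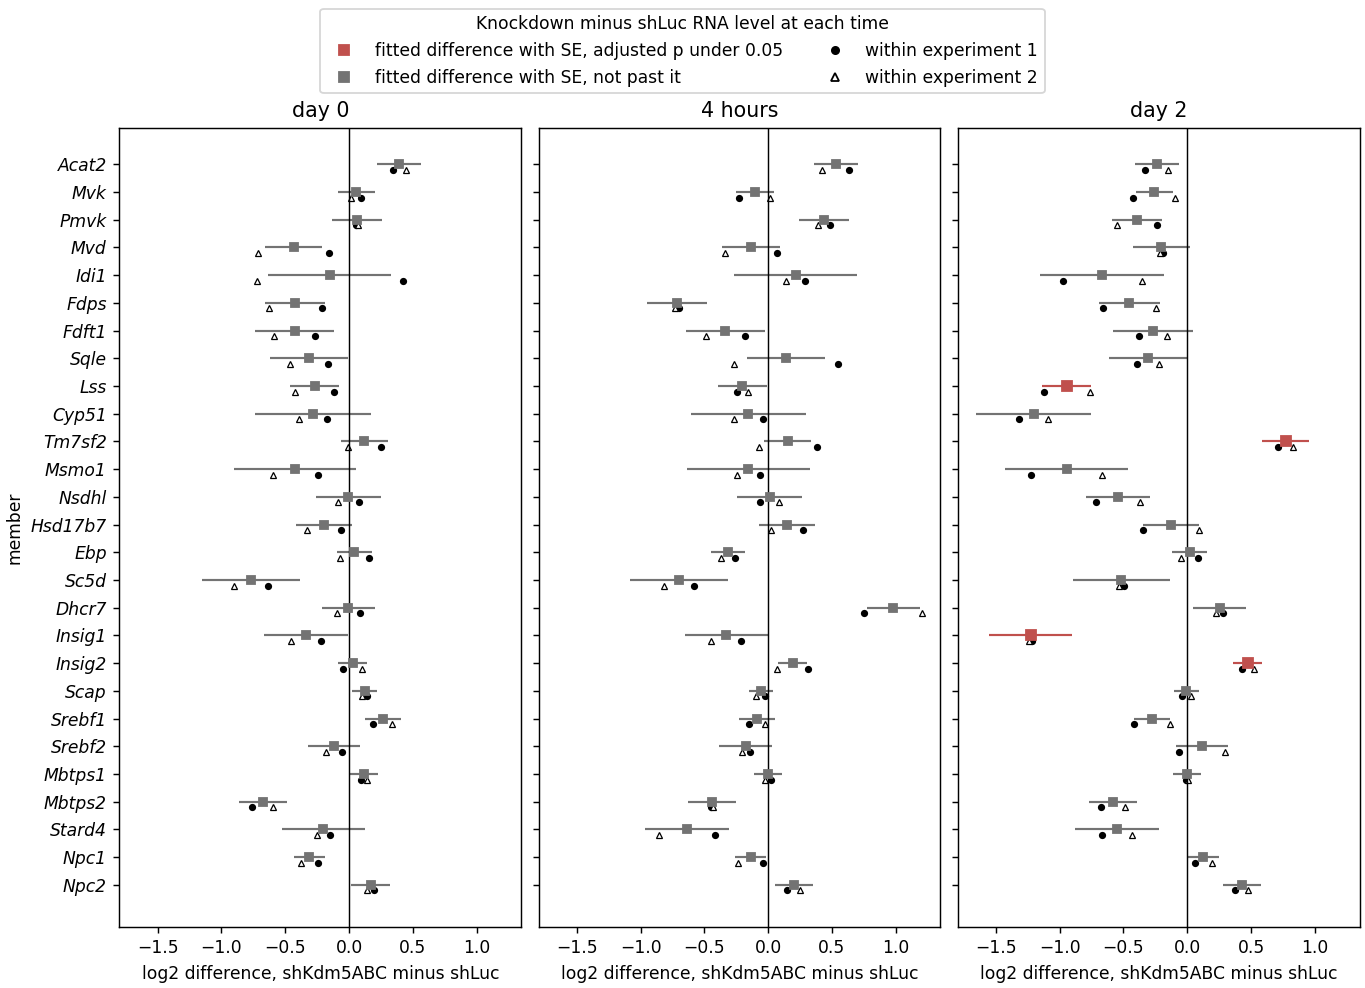
Difference in RNA level, shKdm5ABC minus shLuc on the log2 scale, for 27 members at day 0, 4 hours and day 2. Squares with bars are the fitted difference and its SE, red where the adjusted p is under 0.05, and the small circle and triangle are the differences within experiments 1 and 2. Day 2 holds the 4 called members (Insig1 and Lss below 0, Tm7sf2 and Insig2 above), and Mbtps2 lies below 0 in all 3 panels.

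The 2 experiments themselves differed in sterol genes. In shKdm5ABC libraries 12, 21 and 22 of 27 members were higher in experiment 2 than in experiment 1 at day 0, 4 hours and day 2, and in shLuc libraries 21, 23 and 19. Over all tested transcripts the share was 49.4% to 53.7%. The median over the enzymes, experiment 2 minus experiment 1, was -0.17, 0.33 and 0.53 in shKdm5ABC cells at the 3 times and 0.10, 0.48 and 0.27 in shLuc cells. In shKdm5ABC cells at day 0, 5 of the 17 enzymes were higher in experiment 2. Msmo1, for example, was at 9.90 in experiment 2 and 8.63 in experiment 1 in shKdm5ABC cells at day 2. Whether the cultures differed in medium, serum or density is not given in the sources used here.

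A second list held other genes of sterol handling. Of its 14 tested genes, 3 fell and 2 rose at 4 hours in shLuc cells, with a median of 0.15, where 42.3% of all transcripts were called. Lipa, the lysosomal acid lipase, fell by 1.06 (SE 0.12). At day 2 against day 0 in shLuc cells, 5 rose and 2 fell, where 55.0% of all transcripts were called, and Tmem97, a sterol-responsive gene, was higher by 2.10 (SE 0.20). It was also the single called gene of the 14 between the groups at day 2, lower in shKdm5ABC cells by 0.98 (SE 0.20, adjusted p 0.0187), where 9.00% of all transcripts were called. In each of these comparisons the share called lay a little under that of all transcripts.

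Another list held fatty acid genes that SREBP drives. Of 12 tested, 4 fell and 3 rose at 4 hours in shLuc cells, against the same 42.3% of all transcripts, among them the desaturases Fads2 (-1.40, SE 0.19) and Scd1 (3.49, SE 0.35). At day 2 against day 0, 6 rose and 3 fell, against 55.0% of all transcripts, with Scd1 higher by 4.40 (SE 0.35), Fasn, the fatty acid synthase, by 2.57 (SE 0.34) and Fads1 lower by 2.27 (SE 0.11). Between the groups at day 2 Elovl6, a fatty acid elongase, was higher in shKdm5ABC cells by 0.79 (SE 0.19), and the other 11 were not called, against 9.00% of all transcripts called. Of 10 genes of the sterol sensor LXR and of cholesterol efflux, Apoe (1.27, SE 0.30) and Lrp1 (0.56, SE 0.15) were higher in shKdm5ABC cells at day 2, where 5.66% of all transcripts were, and the 10 had a median of 0.27 against -0.003 over all transcripts. Apoe carries cholesterol in lipoproteins and Lrp1 is a receptor for it.

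RefSeq promoter windows (build GRCm38.p6, 250 bases before to 50 after each start) were at hand for 23 of the 28 members, in 31 windows. Both strands were searched for TCACNCCAC, a form of the sterol regulatory element that SREBP binds, for the E-box CACGTG, which reads the same on both strands and which SREBP can also bind, and for CCAAT, the box of the SREBP partner NF-Y. TCACNCCAC was in the window of 1 of 23 member genes, Hmgcs1, as TCACCCCAC, against 1.44% of 27025 genes with a window. CACGTG was in 5 of 23 (Dhcr7, Hsd17b7, Insig1, Sc5d and Scap), against 8.09%, and CCAAT in 19 of 23, against 41.1%. A match describes these letters in this window only. The windows below are those of the 3 called day 2 members with a single window, and of Mvk, whose promoter held the most KDM5A tags. They run 5′ to 3′ on the strand of the gene, with CACGTG and CCAAT, or its reverse ATTGG, in capitals.
Insig1, chr5:28071162-28071461, plus strand: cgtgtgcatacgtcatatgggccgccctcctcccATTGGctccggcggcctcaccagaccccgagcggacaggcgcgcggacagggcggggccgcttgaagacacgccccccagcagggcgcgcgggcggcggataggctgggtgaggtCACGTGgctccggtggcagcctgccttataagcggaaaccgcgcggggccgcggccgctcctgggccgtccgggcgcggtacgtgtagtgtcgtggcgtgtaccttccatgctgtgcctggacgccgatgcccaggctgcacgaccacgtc
Lss, chr10:76531355-76531654, plus strand: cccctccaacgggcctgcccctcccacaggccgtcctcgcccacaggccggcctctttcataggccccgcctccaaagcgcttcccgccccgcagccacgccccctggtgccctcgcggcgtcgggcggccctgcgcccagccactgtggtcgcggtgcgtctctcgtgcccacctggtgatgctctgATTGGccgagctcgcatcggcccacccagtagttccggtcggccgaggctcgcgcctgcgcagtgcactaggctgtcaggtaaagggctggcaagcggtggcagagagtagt
Tm7sf2, chr19:6067801-6068100, minus strand: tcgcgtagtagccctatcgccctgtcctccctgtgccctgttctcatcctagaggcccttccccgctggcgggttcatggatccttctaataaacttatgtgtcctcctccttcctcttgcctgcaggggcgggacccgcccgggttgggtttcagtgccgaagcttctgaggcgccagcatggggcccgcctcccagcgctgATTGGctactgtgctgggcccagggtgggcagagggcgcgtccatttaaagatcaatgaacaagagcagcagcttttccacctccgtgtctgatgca
Mvk, chr5:114444019-114444318, plus strand: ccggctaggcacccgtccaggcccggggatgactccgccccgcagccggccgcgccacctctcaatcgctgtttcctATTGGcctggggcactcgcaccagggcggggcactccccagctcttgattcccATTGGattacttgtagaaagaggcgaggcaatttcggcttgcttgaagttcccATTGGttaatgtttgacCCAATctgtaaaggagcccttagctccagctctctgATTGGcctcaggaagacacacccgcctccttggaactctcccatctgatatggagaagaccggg

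Insig1 thus holds 1 E-box and 1 CCAAT box, Lss and Tm7sf2 hold 1 CCAAT box each, and Mvk holds 5.

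KDM5A was found at most member promoters. Of the 27 members tested in RNA, 23 had a KDM5A peak within 1000 bp of a start, against 69.8% of all tested symbols. Values are deposited normalized tags per peak, and the input library serves as background. The member peaks had a median of 212 tags averaged over the 6 libraries, against 162 over all 11573 promoter peaks, and 13.5 against 11.7 tags in the input. Of the 23 member peaks 18 lay above the promoter median. Mvd, Npc2, Dhcr7 and Srebf1 had no KDM5A peak in the window.

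Mvk held the most KDM5A tags per peak among the members. In mm9, the build of the peak tables, its peak spans chr5:114893435-114896617, and it held 958 and 408 tags at day 0, 789 and 664 at 4 hours and 1183 and 829 at day 2, against 30.6 in the input. Its mean of 805 tags was above 99.0% of promoter peaks. Insig1 (348 tags) and Idi1 (340) followed in this order by tags, which was not scaled to peak length or input. As a ratio to the input, Mbtps1 (33.7), Acat2 (29.1) and Mvk (26.3) were highest, and Insig1 (10.7) lay below Idi1 (23.6). Mbtps1, the site-1 protease gene, averaged 303 tags, but held 424, 399 and 527 tags at day 0, 4 hours and day 2 in experiment 1 and 130, 103 and 237 in experiment 2, where Msmo1 and Fdps held more at each time. Scap (108) and Pmvk (91.6) held the least.

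KDM5A tags at member promoters did not pass the threshold between times. Between day 0 and 4 hours, and between day 0 and day 2, limma called 0 of 23 member peaks, where 0.0606% (all higher) and 0.173% (0.136% higher, 0.0366% lower) of all 87525 peaks were called, and 0 of 23 had an unadjusted p under 0.05 in either, against 5.23% and 6.34% of all peaks. EdgeR on recovered reads also called 0 of 23 in both, where it called 0.0503% and 1.16% of all peaks. At an unadjusted p under 0.05 edgeR gave 2 and 0 of 23, against 5.50% and 10.2% of all peaks. At day 2 against day 0, 22 of 23 peaks had a fitted difference above 0, with a median of 0.40 against 0.40 over all promoter peaks. In edgeR, which modelled recovered reads and scaled the libraries by the trimmed mean of M-values, the median over the members was -0.07. Its direction thus differed between the 2 procedures, and whether the scaling or the model turned it was not tested. Insig1 held 449 and 385 tags at day 2, against 418 and 205 at day 0. The fitted difference of Sqle was 0.81 (SE 0.67), of Srebf2 0.63 (SE 0.67), of Idi1 0.50 (SE 0.77) and of Scap 0.12 (SE 0.59). In the KDM5A fit limma took each SE and p from the mean-variance trend over all peaks, not from that peak's own spread. In experiment 2 the tags were lower than in experiment 1 at 23, 23 and 22 of 23 member peaks at the 3 times, with a median ratio of 0.426 at day 0, 0.643 at 4 hours and 0.749 at day 2. The depth inferred from the smallest step of the values was 3.87 to 17.6 M tags.

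**Figure D4:**
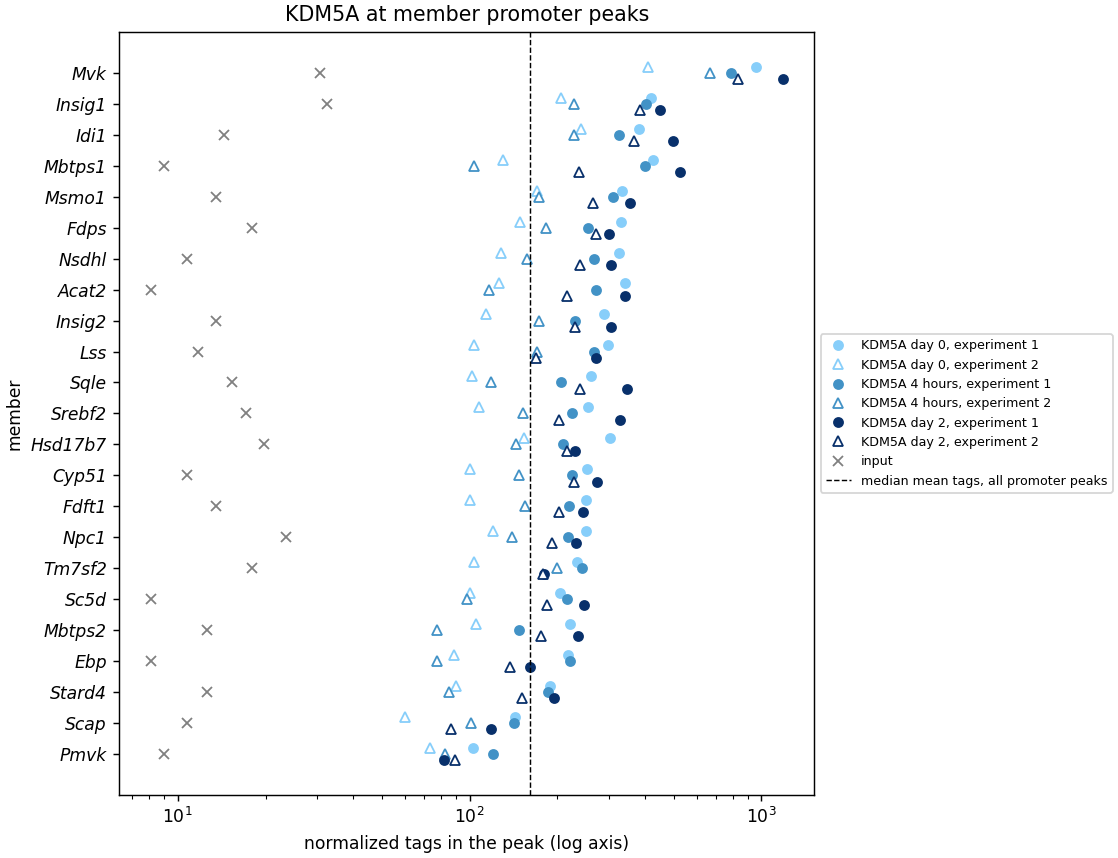
Normalized KDM5A tags (log axis) in the promoter peak of 23 members, ordered by mean, with shade for time, filled circles for experiment 1, open triangles for experiment 2, crosses for the input and a dashed line at the median of all promoter peaks (162 tags). Mvk stands at the top with 408 to 1183 tags, and circles lie right of triangles at most members.

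For KDM5C at day 2, 4 of the 27 members had a peak in the window, a share near the 14.1% of all tested symbols. The peak of Sc5d held 47.5 and 30.8 tags, that of Srebf1 44.1 and 33.2 and that of Cyp51 37.3 and 23.4, against 2.7 to 3.6 tags in the input. The median over all KDM5C promoter peaks was 19.5 tags. Mbtps2 had 2 peaks, with means of 8.93 and 12.9 tags. Srebf1 had a KDM5C peak and no KDM5A peak in the window.

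For H3K4me3 the library labels have to be read with care. The difference of each labelled group from shLuc day 0 was correlated across 9444 genes with the same difference in RNA, as a description over genes that share their libraries. The libraries labelled shKdm5ABC day 0 and shKdm5ABC day 2 had their highest r with the RNA of their own group, at 0.333 and 0.458. For those labelled shKdm5ABC day 0 the r with the RNA of shKdm5ABC 4 hours was nearly as high, at 0.312. Those labelled shLuc 4 hours had r = -0.05 with the RNA of that group and their highest, 0.374, with shKdm5ABC day 0. Those labelled shLuc day 2 had r = 0.457 with their own group and 0.710 with shLuc 4 hours, and those labelled shKdm5ABC 4 hours 0.365 with their own and 0.800 with shLuc day 2. Tags in peaks were 7.88 to 8.32 M in the libraries labelled shKdm5ABC day 0, shKdm5ABC day 2 and shLuc 4 hours, and 6.56 to 6.81 M in the other 3 groups. The values below are therefore given by label, and no direction of the knockdown or of time is drawn from them.

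Tm7sf2 had the largest log2 differences in H3K4me3 among the member peaks. Its peak (mm9 chr19:6066279-6068093) held 474 and 606 tags in the libraries labelled shKdm5ABC day 0, against 157 and 262 in those labelled shLuc day 0. It held 93.8 and 162 tags under the label shKdm5ABC 4 hours, against 520 and 745 under shLuc 4 hours, and 376 and 574 under shKdm5ABC day 2, against 96.0 and 205 under shLuc day 2. The libraries with high and low tags in peaks were thus also those with high and low Tm7sf2, with no overlap between the 2 sets. The part of that difference in total in the Tm7sf2 values was not tested.

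By label, limma called 3 of 21 member peaks between the groups at day 0 (Tm7sf2 1.40, Acat2 0.43 and Lss 0.36, all higher under the label shKdm5ABC), where 32.9% of all 10702 peaks were called, 32.7% higher and 0.196% lower. At 4 hours 7 were lower under the label shKdm5ABC, from Tm7sf2 (-2.33) and Npc1 (-0.57) to Acat2 (-0.37), where 35.9% were called, 34.3% lower and 1.62% higher. The others were Insig1 (-0.49), Ebp (-0.45, but 0.0042 after quantile normalization), Fdft1 (-0.45) and Mvd (-0.43). At day 2, 3 were higher (Tm7sf2 1.72, Acat2 0.61 and Insig1 0.44), where 24.0% were called, 23.8% higher and 0.243% lower. Of the control genes, Srebf2 (0.15, -0.25 and 0.29) and Scap (0.29, -0.25 and -0.19) were not called at day 0, 4 hours or day 2, nor was Idi1 (0.07, -0.04 and 0.09). The median difference over all peaks was 0.29, -0.23 and 0.25 in these comparisons, and over the member peaks 0.15, -0.25 and 0.24. With the experiment as a block 7 and 14 of 21 member peaks were called at day 0 and day 2, where 60.5% and 53.1% of all peaks were. After quantile normalization 2 and 0 were called at 4 hours and day 2, where 26.3% and 4.54% of all peaks were. At day 0 there were 0 calls once replicate 1 of shLuc or either library of shKdm5ABC was left out, and at 4 hours there were 4 when replicate 1 of shKdm5ABC was left out.

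Between libraries labelled shLuc, 5 of 21 member peaks were higher under 4 hours than under day 0 (Tm7sf2 1.61, Acat2 0.50, Ebp 0.36, but -0.000191 after quantile normalization, Lss 0.34 and Mvd 0.28), where 27.9% of all peaks were called, 27.8% higher and 0.00934% lower, and the median over all peaks was 0.28. Under day 2 the peak of Insig1 was lower than under day 0, at 879 and 914 tags against 1303 and 1257 (-0.51, SE 0.08, adjusted p 0.0118), where 1.97% were called, 1.31% higher and 0.663% lower. With the block there were 10 and 7 calls in these comparisons, where 59.3% and 15.4% of all peaks were called, and after quantile normalization 0 under 4 hours, where 2.25% were. Without any 1 of the 4 libraries the calls were 0 to 2 under 4 hours and 0 under day 2.

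**Figure D5:**
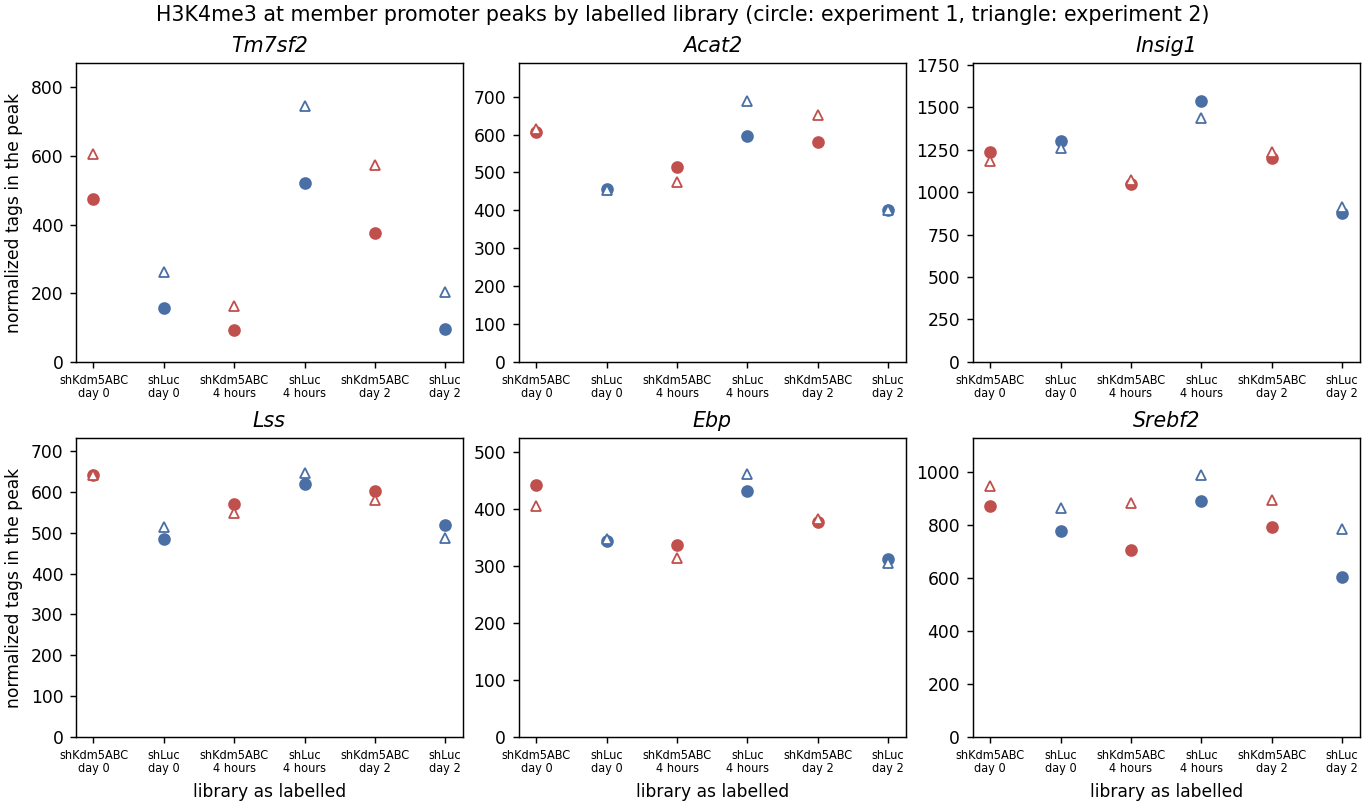
Normalized H3K4me3 tags in the promoter peak of 6 members by labelled library, shKdm5ABC in red left of shLuc in blue at each time, with filled circles for experiment 1 and open triangles for experiment 2. Tm7sf2 holds 376 to 745 tags under 3 labels and 93.8 to 262 under the other 3, and Srebf2, from 604 to 987 tags, overlaps between most labels.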

How the data were processed

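The series holds 34 samples of 3T3-L1 cells: 12 RNA, 12 H3K4me3, 6 KDM5A, 2 KDM5C and 2 input libraries, of which 1 input was not analysed here. RNA came from polyadenylated transcripts. The deposited RNA values are log2 normalized tags per kb, and neither the pseudocount nor the size factors are given in the sources used here. The submitters' processing notes name Bowtie2 (version 0.12.8 as written), Subread, DESeq2, STAR and HOMER, with build mm9. The deposited ChIP signal is in normalized tags per merged peak. How it was scaled is not given in the sources used here. Within a library the values lay within 0.1 of whole multiples of 1 step, and the depths below were inferred from that step, assuming HOMER's usual common total of 10000000 tags. A stricter check of the deposited signal found whole reads in all KDM5A libraries but in only 4 of the 12 H3K4me3 libraries, so the H3K4me3 depths are less certain.

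The 28 members and the other gene lists were chosen with earlier results of these data known. Some genes of the list of other sterol genes are not reported here and were left out of its counts. Groups and replicate numbers came from the sample titles. In RNA, 13534 of 17515 transcripts with a log2 value of at least 1 in at least 2 libraries were tested. ChIP tags were analysed as log2(tags + 1), and a peak counted as a member's promoter peak within 1000 bp of its start. Each assay had 1 limma fit (limma 3.58.1, R 4.3.3) over all its groups with a mean-variance trend, two-sided, with Benjamini-Hochberg adjustment over all features and a threshold of 0.05. KDM5A was also tested with edgeR 4.0.16 (quasi-likelihood) on reads recovered from the tags. Scripts were tested on simulated data. Tables were handled in Python 3.11.15 with pandas 2.3.3.

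The titles number 2 experiments in every group. Same-numbered libraries deviated from their group means together, with r of 0.381 to 0.657 in RNA and 0.504 to 0.790 in H3K4me3 over 15 pairs of groups each, and of 0.047 to 0.333 over 3 pairs in KDM5A. Every RNA and H3K4me3 value lay above 0.1, so the blocked value is given where it changes a call. In KDM5A 1 or more did not, and the block there was an alternative only. The text names every called member of a comparison, with Insig1, Srebf1, Srebf2, Scap, Sqle and Idi1 always given. Members called only with the block, further examples and overlapping genes were chosen after their values were seen. Inferred ChIP depth was 3.87 to 17.6 M tags for KDM5A, 8.37 to 13.6 M for H3K4me3 and 2.95 to 8.13 M for KDM5C. RNA depth is not given in the sources used here, so no counting interval is given for RNA.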

Additional observations from a re-analysis of the deposited data

How the results depend on the processing

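Alternatives were quantile normalization, no filter on low values, another pseudocount, no mean-variance trend, the compared groups alone, a replicate block, peaks within 500 bp and leaving out each library. With the replicate block, which pairs the libraries by experiment number, the calls between shKdm5ABC and shLuc cells were 2, 4 and 9 members at day 0, 4 hours and day 2, and 1 for the change to day 2 between the groups, where 1277, 1310, 3809 and 1038 of all 13534 transcripts were called. For H3K4me3 by label the block gave 7 and 14 peaks between the groups at day 0 and day 2, and 10 and 7 between shLuc 4 hours or day 2 and shLuc day 0, where 6470, 5683, 6350 and 1651 of all 10702 peaks were called. It moved no other member count by over 1.5 times. For KDM5A, whose libraries share only a number, the block called 0 member peaks at both times, and 720 and 840 of all peaks at 4 hours and day 2 against day 0, where 53 and 151 were called without it. At day 2 the RNA count between the groups was 2 after quantile normalization, 2 without the trend and 0 with the compared groups alone. Quantile normalization gave 2, 0 and 0 H3K4me3 peaks for shKdm5ABC against shLuc at 4 hours and day 2 and for shLuc 4 hours against day 0. Peaks within 500 bp gave 1 for shKdm5ABC against shLuc at day 0 and 2 for shLuc 4 hours against day 0. The stricter classic sterol regulatory element, a special case of TCACNCCAC, was in 0 member windows. The cause of these shifts was not tested.

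Quantile normalization turned the sign of 4 differences: Scap between the groups at day 2 to 0.068 in RNA, Idi1 in shKdm5ABC cells from day 0 to day 2 to 0.183, and the H3K4me3 of Ebp to 0.0042 between the groups at 4 hours and to -0.000191 between shLuc 4 hours and day 0, both called without it.

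Leaving out 1 library gave 0 to 1 called members between the groups at 4 hours, 0 to 4 at day 2 and 7 to 10 for day 2 against day 0 in shKdm5ABC cells. For H3K4me3 it gave 0 to 2, and 4 to 6, between the groups at day 0 and 4 hours, 0 to 2 for shLuc 4 hours and 0 for shLuc day 2, both against day 0. Uncalled differences that changed sign when a library was left out ranged as follows. Between the groups at day 0, Srebf2 ran from -0.274 to 0.039 and Idi1 from -0.461 to 0.156. Between the groups at 4 hours, Sqle ran from -0.295 to 0.576, Srebf1 from -0.201 to 0.022, Idi1 from -0.394 to 0.823, Srebf2 from -0.401 to 0.050, Insig1 from -0.675 to 0.018 and Scap from -0.116 to 0.0024. Between the groups at day 2, Scap ran from -0.049 to 0.037, Sqle from -0.670 to 0.057 and Srebf2 from -0.111 to 0.339. In shLuc cells, Insig1 ran from -0.574 to 0.171 between day 0 and day 2, and Srebf2 from -0.133 to 0.317 between 4 hours and day 2. In shKdm5ABC cells, Idi1 ran from -0.469 to 0.455 between day 0 and day 2. For the difference between the groups in the change to 4 hours, Srebf2 ran from -0.283 to 0.167, Insig1 from -0.338 to 0.355 and Idi1 from -0.241 to 0.975, and in the change to day 2 Sqle ran from -0.358 to 0.369.

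With 2 libraries a group, a difference between groups has few degrees of freedom, and an uncalled member cannot be taken as unchanged. Where 1 library of a group was left out, the lone library was assumed to vary like the other groups. EdgeR on recovered reads was not run for H3K4me3, since whole reads were recovered for only part of its libraries.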
